A study of Mus musculus with 16 samples.

Results

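Mitochondria keep ribosomes of their own, which descend from those of bacteria and translate a small set of respiratory chain subunits encoded by mitochondrial DNA. The RNA of these ribosomes comes from the mitochondrial genome, whereas all of their proteins are encoded in the nucleus, translated in the cytosol and imported. Genes named Mrpl mostly encode proteins of the large subunit, which forms peptide bonds, and genes named Mrps mostly those of the small subunit, which reads the codons. The proteins are either counterparts of bacterial ribosomal proteins or are particular to mitochondria. Of the antibiotics given in this study, neomycin acts on the bacterial ribosome and the others on the bacterial cell wall or DNA.

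The genes described here are the 71 mouse genes, of 22180 with a probe set that carries a single symbol, whose symbol is Mrpl or Mrps followed by a number. A trailing letter was allowed and pseudogenes were dropped. Where a gene had several such probe sets, which was so for 9 of the 71, the brightest by its mean over the 16 arrays was used. By their known place in the ribosome 45 belong to the large subunit, which includes Mrps30 and Mrps18a, and 25 to the small subunit. Mrps36 is in neither list, since its product is now known as a part of a mitochondrial dehydrogenase complex. A further 7 symbols (Mrpl30, Mrpl33, Mrpl41, Mrpl43, Mrpl44, Mrpl53 and Mrps6) lay only on probe sets that carry several symbols and are not described.

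The RNA of myeloid progenitors, sorted from the marrow of wild-type C57BL/6 mice, was amplified and hybridised to 16 arrays. In the antibiotic groups the mice drank metronidazole, vancomycin, ampicillin and neomycin, each at 1 g/L, for 3 weeks, and in the control groups water without them, and both waters contained 2% sucrose. The cells carried Kit and lacked lineage markers, Sca-1 and CD105. Common myeloid progenitors (CMPs) had intermediate CD16/32 and no CD115, granulocyte-monocyte progenitors (GMPs) had high CD16/32 and no CD115, and committed monocyte progenitors (cMoPs) carried CD115 and Ly6C. There were 3 arrays of antibiotic and 3 of control CMPs, 3 of antibiotic and 2 of control GMPs, and 3 of antibiotic and 2 of control cMoPs. The labels do not say whether arrays of a group came from separate mice or pools, so p-values here reflect only how much these arrays differ, and their small number limits the precision. CMPs are an early and mixed population. GMPs lie later, towards granulocytes and monocytes, and cMoPs later still, towards monocytes only.

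The values are log2 signals as deposited, so a difference of 1 is a 2-fold difference. Levels of different genes are not set against each other, because probe sets differ in brightness at the same amount of RNA. All 71 genes lay above the median gene: their means over the 16 arrays ran from 4.64 to 10.61 with a median of 8.25, against a median gene at 4.42. The 3 markers of the CD115 and Ly6C gate (Csf1r, Ly6c1 and Ly6c2) were higher in cMoPs than in CMPs, by a median of 2.41, and both CD16/32 genes (Fcgr3 and Fcgr2b) were higher in GMPs than in CMPs, by a median of 2.61. In cMoPs against GMPs Csf1r, which encodes CD115, was higher (1.95, limma adjusted p = 2.68e-07), whereas Ly6c1 (0.56) and Ly6c2 (0.14) were not called. Kit, whose product every sort required, was lower in GMPs (-0.48) and cMoPs (-1.10) than in CMPs, and Eng, which encodes the CD105 that every sort lacked, was lower too (-1.62 and -1.21), and these 4 differences were called. In bulk RNA of sorted cells, fewer cells of a type and less RNA per cell cannot be told apart.

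Promoters of 5 of the 8 genes called between progenitors are shown here, because regulators of nuclear genes for mitochondria are known to act at such sites. RefSeq windows of build GRCm38.p6, from 250 bases before to 50 bases after a gene's start, were found for 62 of the 71 genes. Capitals mark matches to 4 motifs searched on both strands: the core of the NRF1 site (GCATGCGC), a site of ETS factors such as GABP (CCGGAAG), a YY1 site (AAGATGGC) and an E-box (CACGTG), at which Myc can bind. Mrpl52 lies at chr14:54426659-54426958 on the plus strand, Mrpl58 at chr11:115403502-115403801 on the plus strand, Mrpl51 at chr6:125191950-125192249 on the plus strand, Mrpl10 at chr11:97041332-97041631 on the plus strand and Mrpl47 at chr3:32736706-32737005 on the minus strand. The first 3 hold ETS matches, Mrpl10 an NRF1 match and Mrpl47 no match, and the window of Mrpl16 holds none either.
Mrpl52: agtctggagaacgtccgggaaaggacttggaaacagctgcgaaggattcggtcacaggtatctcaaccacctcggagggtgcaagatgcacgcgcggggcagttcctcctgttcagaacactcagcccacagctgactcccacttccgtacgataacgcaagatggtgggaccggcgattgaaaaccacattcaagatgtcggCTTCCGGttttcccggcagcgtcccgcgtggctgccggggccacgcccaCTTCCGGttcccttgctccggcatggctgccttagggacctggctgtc
Mrpl58: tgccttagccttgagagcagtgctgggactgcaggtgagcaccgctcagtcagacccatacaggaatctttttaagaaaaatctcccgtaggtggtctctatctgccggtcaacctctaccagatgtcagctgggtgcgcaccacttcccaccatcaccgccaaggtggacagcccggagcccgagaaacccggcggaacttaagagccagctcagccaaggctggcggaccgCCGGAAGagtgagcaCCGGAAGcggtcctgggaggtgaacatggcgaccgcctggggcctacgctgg
Mrpl51: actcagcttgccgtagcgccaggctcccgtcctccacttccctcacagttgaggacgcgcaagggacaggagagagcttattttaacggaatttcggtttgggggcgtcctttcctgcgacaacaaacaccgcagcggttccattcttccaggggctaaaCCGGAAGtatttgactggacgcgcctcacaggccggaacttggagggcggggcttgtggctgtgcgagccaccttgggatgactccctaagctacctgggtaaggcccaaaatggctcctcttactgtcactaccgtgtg
Mrpl10: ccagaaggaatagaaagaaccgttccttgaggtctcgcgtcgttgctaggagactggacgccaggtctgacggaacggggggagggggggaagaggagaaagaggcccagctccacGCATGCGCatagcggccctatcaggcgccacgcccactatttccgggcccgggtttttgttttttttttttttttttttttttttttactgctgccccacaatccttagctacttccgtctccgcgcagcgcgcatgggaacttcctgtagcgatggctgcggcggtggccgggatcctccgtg
Mrpl47: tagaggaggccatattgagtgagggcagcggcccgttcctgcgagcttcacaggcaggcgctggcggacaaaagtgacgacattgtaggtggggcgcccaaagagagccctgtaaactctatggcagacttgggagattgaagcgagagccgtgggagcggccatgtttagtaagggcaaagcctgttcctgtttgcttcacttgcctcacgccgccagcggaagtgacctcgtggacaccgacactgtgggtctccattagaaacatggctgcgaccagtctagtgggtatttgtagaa
Over the 62 windows, 35 (56.5%) held at least 1 of the motifs, against 23.3% of the windows of 17492 protein-coding genes and 19.6% of all 27025 windows. The ETS motif was in 33.9% of the members' windows and 11.9% of the coding ones (9.14% of all windows), and the YY1 motif in 19.4% and 3.21% (2.87% of all windows). The NRF1 core was in 11.3% of the members' windows and 3.61% of the coding ones (2.8% of all windows). The E-box was in 8.06% of the members' windows and 7.91% of the coding ones (7.24% of all windows). These are matches of letters in a fixed window.

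The difference between progenitors that stood out was Mrpl52, which encodes a large-subunit protein particular to mitochondria, in the central protuberance of the ribosome. Its log2 signal was 11.01, 10.91 and 11.02 in antibiotic and 10.88, 10.90 and 10.72 in control CMPs, 9.67, 9.41 and 9.60 in antibiotic and 9.60 and 9.57 in control GMPs, and 9.84, 9.50 and 10.01 in antibiotic and 9.52 and 9.51 in control cMoPs. Every array of GMPs and cMoPs lay below every array of CMPs, in both waters. The difference, given here and below with its standard error (SE), was -1.33 ± 0.10 in GMPs against CMPs (2.52-fold lower, limma adjusted p = 7.69e-08) and -1.26 ± 0.10 in cMoPs against CMPs (2.39-fold lower, adjusted p = 1.23e-07). Leaving out any 1 array gave -1.36 to -1.30 and -1.31 to -1.19. GMPs and cMoPs were close to each other, at a difference of 0.077 (cMoPs minus GMPs, adjusted p = 0.823). It was the only one of the 71 genes to differ by 2-fold or more between progenitors over both waters, or between waters. Of all genes, 865 did so in GMPs against CMPs and 1062 in cMoPs against CMPs.

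**Figure D1:**
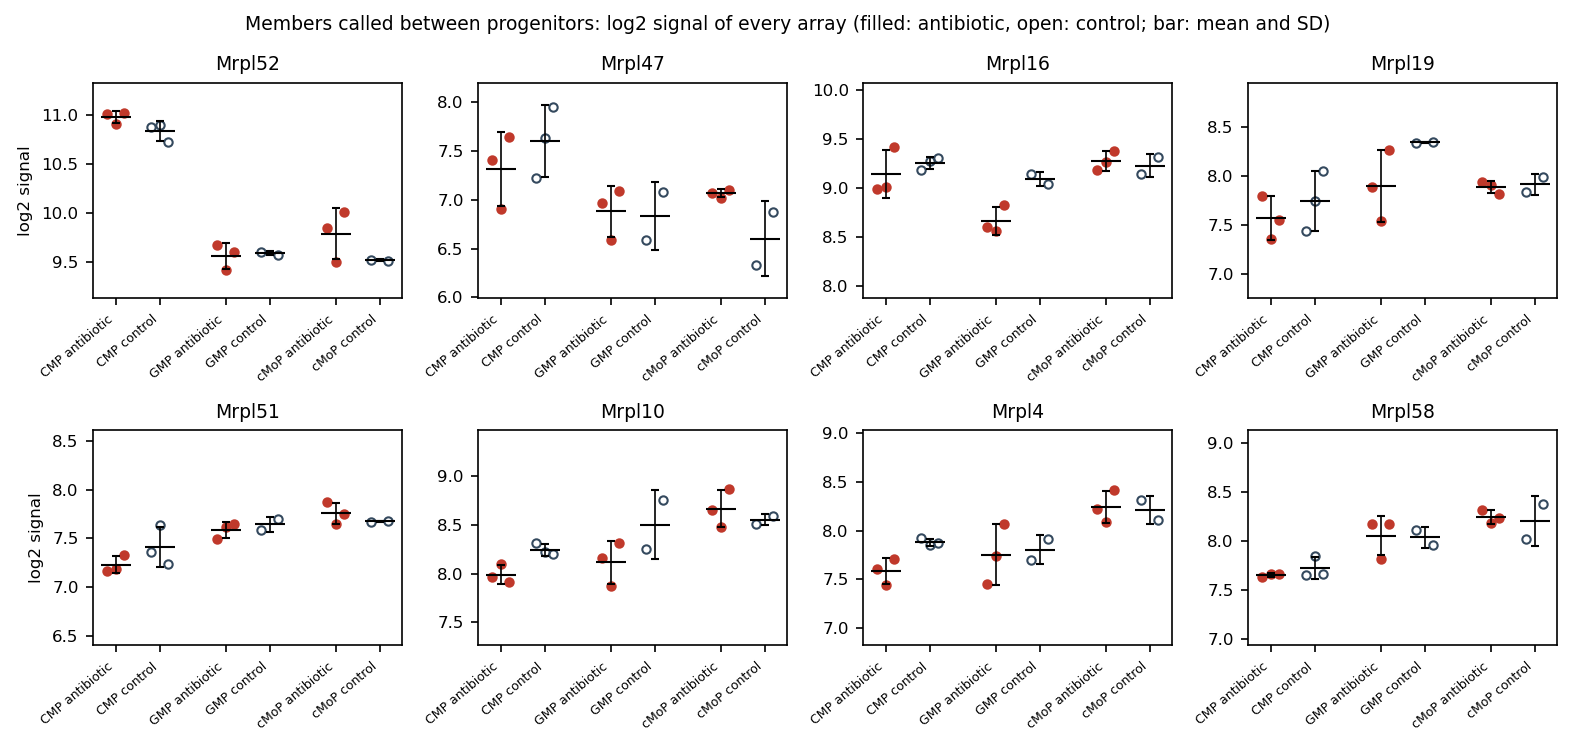
Log2 signal of each array (y axis) for the 8 mitochondrial ribosomal protein genes called between progenitors, by progenitor and water (x axis). Filled points are antibiotic arrays and open points control arrays, the bars are the mean and SD of a group, and all panels span the same number of log2 units. For Mrpl52 every GMP array (at most 9.67) and every cMoP array (at most 10.01) lies below every CMP array (at least 10.72).

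Mrpl58, also called Ict1, encodes a peptidyl-tRNA hydrolase that is a fixed part of the large subunit and can free stalled ribosomes. Its log2 signal was 7.63, 7.66 and 7.66 in antibiotic and 7.65, 7.85 and 7.66 in control CMPs, 8.17, 7.82 and 8.17 in antibiotic and 8.11 and 7.96 in control GMPs, and 8.32, 8.18 and 8.23 in antibiotic and 8.02 and 8.38 in control cMoPs. All cMoP arrays lay above all CMP arrays, while 1 GMP array lay below the highest CMP array. It was higher by 0.54 ± 0.10 in cMoPs than in CMPs (adjusted p = 0.000876) and by 0.36 ± 0.10 in GMPs than in CMPs (adjusted p = 0.0204). The GMP call was lost without antibiotic GMP array 3 (0.33, adjusted p = 0.0507) or control GMP array 1 (0.32, adjusted p = 0.0945), and with the replicate block within each water (0.34, adjusted p = 0.0588).

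Mrpl4 encodes a protein with a bacterial counterpart at the peptide exit tunnel. Its log2 signal was 7.61, 7.44 and 7.71 in antibiotic and 7.92, 7.85 and 7.87 in control CMPs, 7.45, 7.74 and 8.07 in antibiotic and 7.70 and 7.91 in control GMPs, and 8.22, 8.09 and 8.41 in antibiotic and 8.31 and 8.11 in control cMoPs. Every cMoP array lay above every array of the other progenitors. It was higher in cMoPs by 0.49 ± 0.12 than in CMPs (adjusted p = 0.00552) and by 0.45 ± 0.12 than in GMPs (adjusted p = 0.0423). The call against GMPs was the only one of the 71 between those progenitors. It was lost in 12 of 16 fits that left out 1 array (0.37 to 0.50, adjusted p = 0.0515 to 0.172). It was also lost with quantile normalization (adjusted p = 0.0509), the unmoderated model (0.0615), every probe set tested (0.0838) or only the arrays compared (0.097). Among the fits without 1 array, it held without antibiotic CMP arrays 2 or 3, antibiotic GMP array 3 or antibiotic cMoP array 2.

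Mrpl51, a large-subunit gene particular to mitochondria, and Mrpl10, whose protein anchors the stalk that recruits translation factors, were the other genes higher in cMoPs than in CMPs. The log2 signal of Mrpl51 was 7.17, 7.19 and 7.33 in antibiotic and 7.36, 7.64 and 7.24 in control CMPs, 7.49, 7.62 and 7.65 in antibiotic and 7.59 and 7.70 in control GMPs, and 7.87, 7.65 and 7.75 in antibiotic and 7.67 and 7.68 in control cMoPs. All cMoP arrays lay above all CMP arrays, narrowly so for control CMP array 2, and the GMP arrays overlapped both. Mrpl51 was higher by 0.39 ± 0.093 in cMoPs than in CMPs (adjusted p = 0.0061) and by 0.29 ± 0.093 in GMPs than in CMPs (adjusted p = 0.0421). The GMP call was lost in 11 of 16 fits without 1 array (0.25 to 0.32, adjusted p = 0.0509 to 0.143), and held without antibiotic CMP array 3, antibiotic GMP array 1, antibiotic cMoP arrays 1 or 2 or control CMP array 2. It was also lost with the replicate number as a block (adjusted p = 0.0662), that block within each water (0.125), median centring (0.0633), every probe set tested (0.0626) or only the arrays compared (0.0734).

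The log2 signal of Mrpl10 was 7.96, 8.10 and 7.91 in antibiotic and 8.31, 8.22 and 8.20 in control CMPs, 8.16, 7.87 and 8.31 in antibiotic and 8.25 and 8.75 in control GMPs, and 8.65, 8.48 and 8.86 in antibiotic and 8.51 and 8.59 in control cMoPs. All cMoP arrays lay above all CMP arrays, and those of GMPs overlapped both. Within each water, cMoPs minus CMPs was 0.67 with antibiotics and 0.31 with control water. Mrpl10 was higher by 0.49 ± 0.12 in cMoPs than in CMPs (adjusted p = 0.00569). Its second, dimmer probe set differed by 0.17, and the mean of both probe sets was not called (0.33, adjusted p = 0.0735).

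Mrpl47, a counterpart of a bacterial protein at the tunnel exit, was lower in both later progenitors by the brighter of its 2 probe sets. Its log2 signal was 7.40, 6.90 and 7.64 in antibiotic and 7.22, 7.63 and 7.95 in control CMPs, 6.97, 6.59 and 7.09 in antibiotic and 6.59 and 7.08 in control GMPs, and 7.07, 7.02 and 7.10 in antibiotic and 6.33 and 6.87 in control cMoPs. Antibiotic CMP array 2 overlapped the arrays of both later progenitors. Within each water, cMoPs minus CMPs was -0.25 with antibiotics and -1 with control water. The difference was -0.60 ± 0.17 in GMPs against CMPs (adjusted p = 0.0233) and -0.62 ± 0.17 in cMoPs against CMPs (adjusted p = 0.015). The other probe set differed by -0.023 and -0.002 in the same comparisons, and the mean of both was not called (-0.31, adjusted p = 0.0834, and -0.31, adjusted p = 0.0709); the call rests on 1 probe set. The GMP call was also lost with every probe set tested (adjusted p = 0.0572) or the unmoderated model (0.0626). It was lost without antibiotic CMP arrays 1 or 3, antibiotic GMP array 2, control GMP array 1 or control CMP array 3 (-0.58 to -0.48, adjusted p = 0.0501 to 0.136), and the cMoP call without control cMoP array 1 (-0.49, adjusted p = 0.109).

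Mrpl19 and Mrpl16, both with bacterial counterparts, were called only in GMPs against CMPs. Mrpl19 had 7.89, 7.54 and 8.27 in antibiotic and 8.34 and 8.35 in control GMPs, against 7.80, 7.36 and 7.55 in antibiotic and 7.44, 7.74 and 8.05 in control CMPs (difference 0.47 ± 0.14, adjusted p = 0.0301). A probe set that carries the symbols of both Gcfc2 and Mrpl19 was not used, and differed by -0.175 in this comparison. Mrpl16, whose protein lies near the catalytic centre, had 8.60, 8.56 and 8.82 in antibiotic and 9.14 and 9.04 in control GMPs, against 8.99, 9.01 and 9.42 in antibiotic and 9.18, 9.27 and 9.30 in control CMPs (difference -0.32 ± 0.10, adjusted p = 0.0409). The groups overlapped for both genes in the pooled waters, and the low GMP values of Mrpl16 were those of the antibiotic arrays: GMPs minus CMPs was -0.48 with antibiotics and -0.16 with control water. The call of Mrpl19 was lost without any 1 of antibiotic GMP arrays 1 and 3, both control GMP arrays, antibiotic CMP arrays 2 and 3 and control CMP arrays 1 and 2 (0.37 to 0.47, adjusted p = 0.0518 to 0.0841), and with every probe set tested (0.0648), the unmoderated model (0.0599) or only the arrays compared (0.0627). The call of Mrpl16 was lost without any 1 of antibiotic GMP arrays 1 and 2, both control GMP arrays, antibiotic CMP array 3, control CMP arrays 2 and 3 and antibiotic cMoP arrays 1 and 2 (-0.34 to -0.25, adjusted p = 0.05 to 0.135), and with every probe set tested (0.0667), only the arrays compared (0.0697) or the replicate block within each water (0.0538).

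Over the 71 genes, 6 were called in GMPs against CMPs, 3 higher and 3 lower, at a limma adjusted p under 0.05. That is 8.45% of them, against 16% of all genes tested (7.87% higher and 8.17% lower). In cMoPs against CMPs 6 were called (8.45%), 4 higher and 2 lower, against 18.9% of all genes (9.72% higher and 9.2% lower). In cMoPs against GMPs 1 was called (1.41%), against 5.42% of all genes (2.6% higher and 2.82% lower). With only the genes above the median gene tested, which all 71 are, 8, 8 and 2 members were called in these comparisons, against 33.2%, 38% and 12.7% of the 11088 genes then tested. In each comparison the members' share lay below that of all genes, a difference that was not tested, and 63 of the 71 were called in none.

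**Figure D2:**
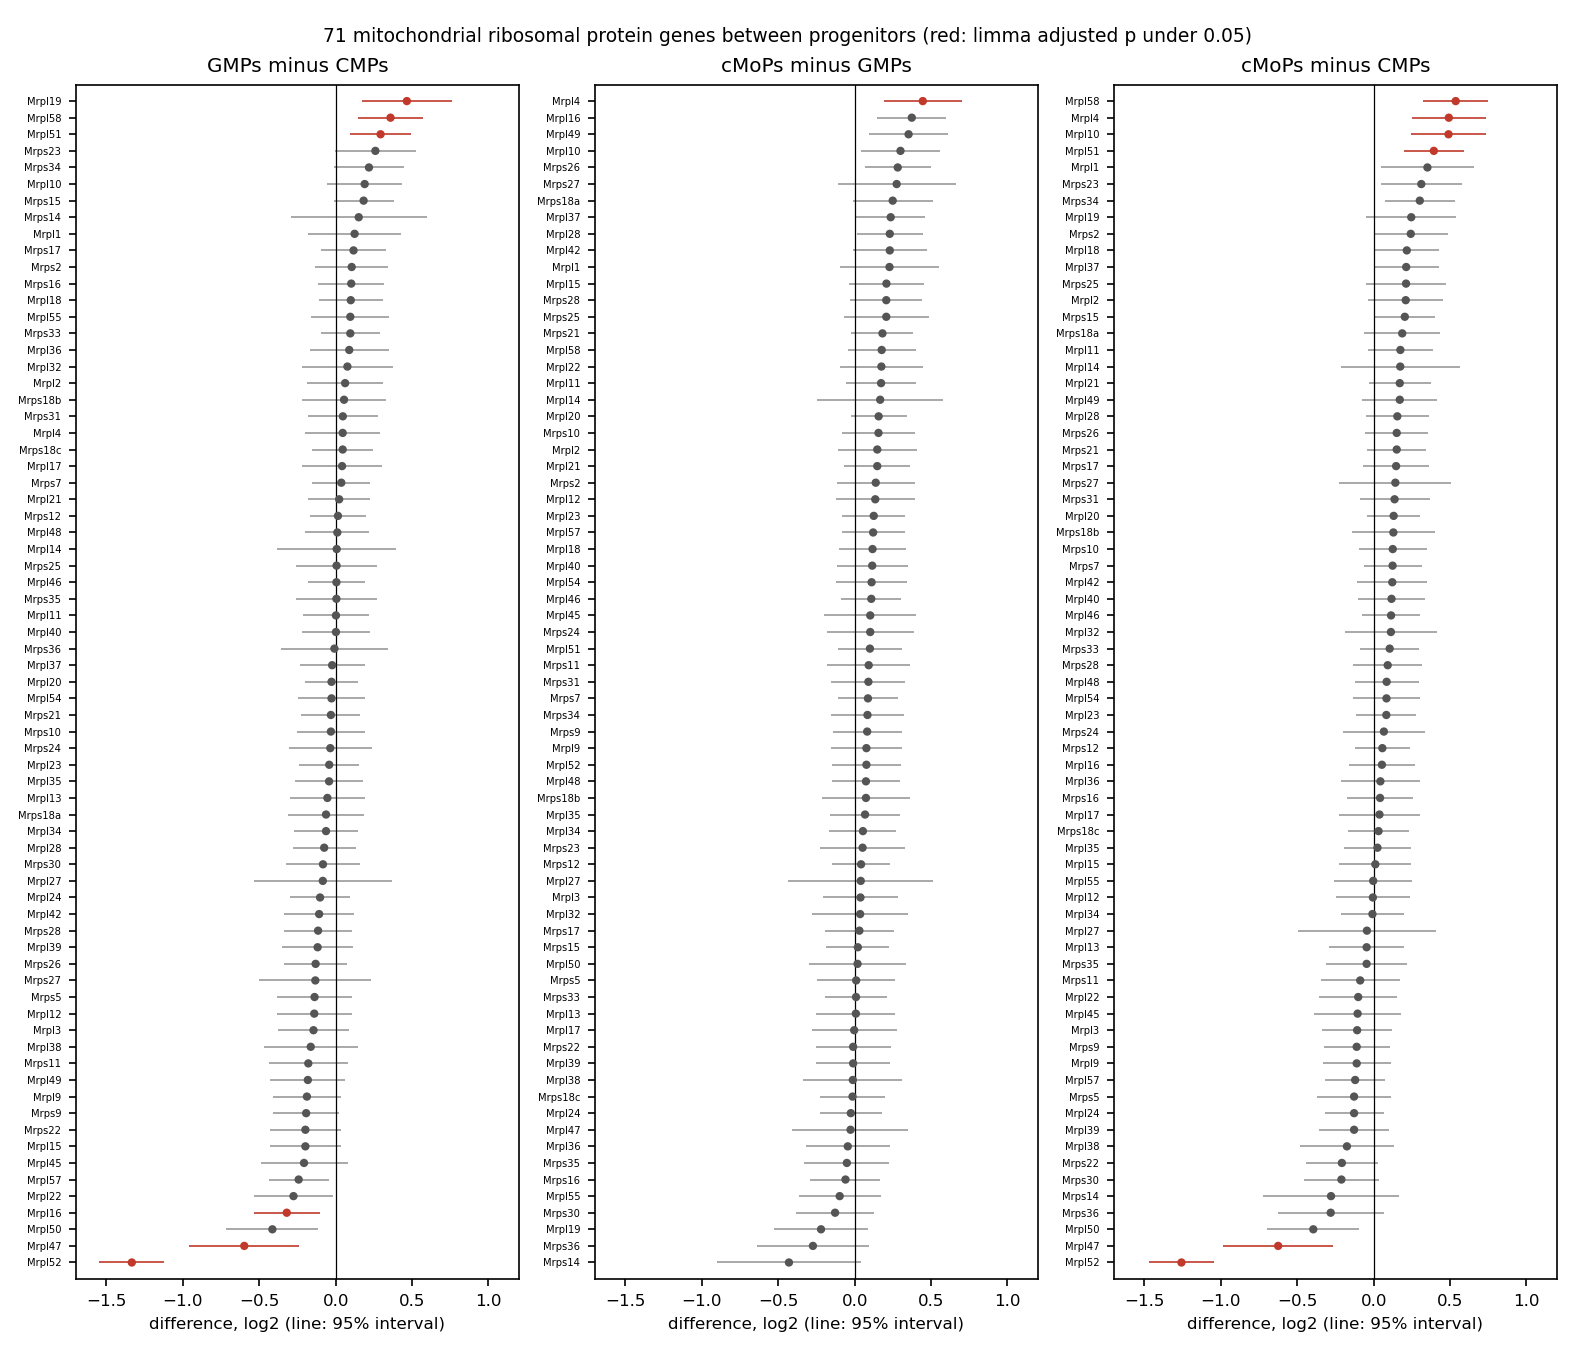
Log2 difference (x axis) of each of the 71 genes (y axis, ranked within a panel) in GMPs against CMPs, cMoPs against GMPs and cMoPs against CMPs, with 95% intervals. Red marks limma adjusted p under 0.05; all but Mrpl52 lie within 1 log2 unit of 0.

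All 8 members called between progenitors belong to the large subunit (8 of 45), and none of the 25 small-subunit members was called by limma in any of the comparisons. The symbol rule leaves out small-subunit genes under other names. Of these, Dap3 was called lower in GMPs against CMPs and Ptcd3 in cMoPs against CMPs, as described below. At an unadjusted p under 0.05 there were 4 small-subunit genes in cMoPs against CMPs, 1 in cMoPs against GMPs and 0 in GMPs against CMPs, against 10, 6 and 9 large-subunit genes. Of all 22180 genes, 6524, 3514 and 5875 had such a p in these comparisons. Whether the subunits differ was not tested. Among large-subunit genes, 3 of 28 with a bacterial counterpart and 3 of 17 particular to mitochondria were called in GMPs against CMPs, and the same numbers in cMoPs against CMPs. Mrpl50, a large-subunit gene particular to mitochondria, lay near the threshold against CMPs. It differed by -0.41 ± 0.14 in GMPs (adjusted p = 0.0608) and -0.40 ± 0.14 in cMoPs (adjusted p = 0.0661). Mrpl16 was also near it in cMoPs against GMPs (0.37 ± 0.11, adjusted p = 0.0537). The smallest adjusted p of a small-subunit member between progenitors was 0.0627, in cMoPs against CMPs.

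The members that are best known gave small differences by the probe sets used. Mrps12, the counterpart of a bacterial protein of the decoding centre, differed by 0.015 in GMPs and 0.057 in cMoPs against CMPs, with SEs of 0.085 and no call. Mrps5 differed by -0.14 and -0.13, Mrps22 by -0.20 and -0.21, and Mrpl45, which helps to hold the ribosome at the inner membrane, by -0.21 and -0.10 in the same comparisons, and none was called (adjusted p = 0.227 to 0.669). Of the stalk proteins beside Mrpl10, Mrpl11 differed by 0.002 and 0.17 and Mrpl12, the factor-binding stalk protein, by -0.14 and -0.005 (adjusted p = 0.276 to 0.992). The 3 Mrps18 paralogues sit at different places in the ribosome. In cMoPs against CMPs they differed by 0.19 (Mrps18a), 0.13 (Mrps18b) and 0.032 (Mrps18c), and none was called (adjusted p = 0.321 to 0.869). The dimmer probe set of Mrps18b differed by -0.063 in that comparison. In GMPs against CMPs it differed by -0.326, and the brighter probe set by 0.055. The 95% interval of the difference lay within 1.5-fold for 66 of the 71 genes in GMPs against CMPs, for 65 in cMoPs against GMPs and for 61 in cMoPs against CMPs.

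The direction of the small differences was uneven. The median of the 71 differences was -0.027 in GMPs against CMPs (33 above 0), 0.09 in cMoPs against GMPs (56 above 0) and 0.085 in cMoPs against CMPs (47 above 0), beside medians over all genes of 0.025, 0.013 and 0.044. In the antibiotic arrays alone the median was 0.19 in cMoPs against GMPs (63 above 0) and 0.15 in cMoPs against CMPs (54 above 0). In the control arrays alone it was -0.005 (33 above 0) and -0.007 (34 above 0). Over both waters, the 78 oxidative phosphorylation subunits had close medians of 0.085 in cMoPs against GMPs (68 above 0) and 0.083 in cMoPs against CMPs (61 above 0). Their median in GMPs against CMPs was 0.01 (40 above 0). For the 64 cytosolic ribosomal protein genes these 3 medians were 0.033 (42 above 0), -0.048 (15 above 0) and -0.082 (9 above 0). Across the stages, 25 of the 71 genes were highest in cMoPs and lowest in CMPs and 17 highest in cMoPs and lowest in GMPs. These orders are descriptions of means. Markers of other lineages changed between the same progenitors: the mean log2 signal of 6 megakaryocyte and erythroid markers was 8.54 to 8.80 over CMP arrays, 5.51 to 6.35 over GMP arrays and 4.67 to 5.02 over cMoP arrays, and all 6 were lower in both later progenitors. Their part in the members' differences was not tested.

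In 5 lists of genes that serve the same ribosome in other ways, the genes called between progenitors were all lower in the later one. In cMoPs against CMPs the share called was 9.09% of assembly and rRNA modification factors, 13.3% of translation factors, 6.25% of aminoacyl-tRNA synthetases and 28.6% of transcription and DNA upkeep genes, beside 18.9% of all genes (9.2% lower). In GMPs against CMPs it was 9.09%, 13.3%, 0% and 14.3% in the same order, beside 16% of all genes (8.17% lower). The 2 calls among 3 ribosomal proteins under other names lay in different comparisons. Of 22 measured assembly and rRNA modification factors, 2 fell in cMoPs against CMPs: Noa1, a GTPase of ribosome assembly (-0.57 ± 0.097, adjusted p = 0.000383), and Nsun4, an rRNA methyltransferase (-0.66 ± 0.20, adjusted p = 0.0286). Both also fell in GMPs against CMPs (-0.44, adjusted p = 0.00389, and -0.64, adjusted p = 0.0408). Of 15 translation factors, Guf1 (-0.44 ± 0.085, adjusted p = 0.00123) and the initiation factor Mtif2 (-0.46 ± 0.14, adjusted p = 0.0237) fell in cMoPs against CMPs, and Guf1 (-0.27, adjusted p = 0.0426) and the recycling factor Gfm2 (-0.51, adjusted p = 0.0105) in GMPs against CMPs. Of 16 aminoacyl-tRNA synthetases, Iars2 fell in cMoPs against CMPs (-0.39 ± 0.11, adjusted p = 0.0169).

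Of 14 genes for mitochondrial transcription, DNA upkeep and RNA processing, 4 fell in cMoPs against CMPs. They were the DNA helicase Twnk (-0.64 ± 0.14, adjusted p = 0.00415), the tRNA-processing subunit Trmt10c (-0.36 ± 0.11, adjusted p = 0.0306), the elongation factor Tefm (-0.66 ± 0.21, adjusted p = 0.0321) and Tfam, which packages mitochondrial DNA (-0.44 ± 0.14, adjusted p = 0.044). In GMPs against CMPs Pnpt1 (-0.39, adjusted p = 0.0143) and Twnk (-0.51, adjusted p = 0.0222) fell. Of 3 measured mitochondrial ribosomal proteins under other names, Dap3 of the small subunit fell in GMPs against CMPs (-0.37 ± 0.11, adjusted p = 0.0366) and Ptcd3 of the small subunit in cMoPs against CMPs (-0.53 ± 0.13, adjusted p = 0.00684).

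Of 10 regulators of nuclear genes for mitochondria, 3 fell in cMoPs against CMPs (30%), beside 18.9% of all genes called (9.2% lower). They were Mycn (-1.16 ± 0.12, adjusted p = 2.67e-06), the coactivator Pprc1 (-0.67 ± 0.098, adjusted p = 9.55e-05) and Myc (-0.61 ± 0.093, adjusted p = 0.000141). In GMPs against CMPs Mycn (-0.95, adjusted p = 3e-05) and Pprc1 (-0.53, adjusted p = 0.00113) fell, and in cMoPs against GMPs Myc (-0.40, adjusted p = 0.0233). These are 20% and 10% of the regulators, beside 16% and 5.42% of all genes. Nrf1, Yy1 and Gabpa, which encodes a subunit of GABP, were not called in cMoPs against CMPs. Nrf1 differed by 0.037, Gabpa by 0.035 and Yy1 by -0.09, with SEs of 0.098, 0.092 and 0.095 (adjusted p = 0.851, 0.851 and 0.593). Genes of ETS factors other than GABP were not in the list.

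The 64 measured genes for proteins of the cytosolic ribosome, which translates the members' own mRNAs, had a median of -0.048 in cMoPs against CMPs with 2 called higher and 3 lower. That is 7.81% called, beside 18.9% of all genes. Rps4l (0.66, adjusted p = 0.0102) and Rpl34 (0.44, adjusted p = 0.0103) were higher, and Rpl3 (-0.67, adjusted p = 0.000744), Rpl17 (-0.33, adjusted p = 0.0427) and Rpl37a (-0.27, adjusted p = 0.0464) lower. Many such genes have near-identical copies, so which copy a probe set reads is uncertain. In GMPs against CMPs Rpl3 (-0.58, adjusted p = 0.00309) and Rpl17 (-0.38, adjusted p = 0.0244) fell, 3.12% of the list beside 16% of all genes. In cMoPs against GMPs none of the list was called, against 5.42% of all genes. An unadjusted p under 0.05 was found for 4 of the list, against 3514 of all 22180 genes. The 78 oxidative phosphorylation subunits, among them partners of the products of mitochondrial ribosomes, had a median of 0.083 in cMoPs against CMPs with 5 called higher and 2 lower. These calls are 8.97% of the subunits, beside 18.9% of all genes. The largest were Cox4i2 (0.76 ± 0.22, adjusted p = 0.0216) and Cox6b2 (-1.29 ± 0.11, adjusted p = 1.53e-07), both isoforms of complex IV subunits; Ndufa11, Ndufs8, Uqcrq and Ndufa9 (0.31 to 0.48) were also higher and Cox6a2 (-0.87) lower.

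With antibiotic water, 0 of the 71 genes were called at the limma adjusted p under 0.2 that the study's design names, over the 3 progenitors together or in any of them. Over the 3 progenitors 0.514% of all genes were called, in CMPs 0.0406%, in GMPs 0.0721% and in cMoPs 0.131%. At an unadjusted p under 0.05 there were 7 members over the 3 progenitors, 4 in CMPs, 10 in GMPs and 3 within cMoPs. Of all 22180 genes, 2115, 1606, 1662 and 1375 had such a p. Under limma's trended and robust variances, 1 member was called over the 3 progenitors (Mrpl34, adjusted p = 0.103), against 1.58% of all genes. In GMPs these variances also called 1 (Mrpl34, adjusted p = 0.0861), against 0.122% of all genes. The unmoderated model called 0 members in any of the contrasts. With only genes above the median gene tested, Mrpl34 (adjusted p = 0.165), Mrps7 (0.174) and Mrpl9 (0.185) passed over the 3 progenitors, against 3.18% of genes. The 95% interval lay within 1.5-fold for 70 of the 71 genes over the 3 progenitors, 56 in CMPs, 47 in GMPs and 62 in cMoPs.

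Mrpl34, a small large-subunit protein with a bacterial counterpart, had the most negative difference in GMPs. Its log2 signal was 9.44, 9.53 and 9.65 in antibiotic GMPs, against 10.14 and 10.11 in control GMPs, and these arrays did not overlap. It was 9.80, 9.97 and 9.93 in antibiotic and 9.79, 10.09 and 9.79 in control CMPs, and 9.95, 9.59 and 9.78 in antibiotic and 10.09 and 9.91 in control cMoPs, and both of these overlapped. The difference was 0.01 ± 0.13 in CMPs (adjusted p = 0.992), -0.58 ± 0.15 in GMPs (adjusted p = 0.371), -0.23 ± 0.15 in cMoPs (adjusted p = 0.88) and -0.27 ± 0.081 over the 3 progenitors (adjusted p = 0.292).

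Mrpl9, also with a bacterial counterpart, was the member with the most negative difference over the 3 progenitors, at -0.27 ± 0.087 (adjusted p = 0.309). Its log2 signal was 7.20, 7.65 and 7.64 in antibiotic and 7.75, 7.83 and 7.59 in control CMPs, 7.14, 7.34 and 7.22 in antibiotic and 7.71 and 7.51 in control GMPs, and 7.35, 7.33 and 7.50 in antibiotic and 7.52 and 7.69 in control cMoPs. The antibiotic arrays lay below the control arrays in GMPs and cMoPs and overlapped them in CMPs. The small-subunit genes Mrps10 (-0.25 ± 0.088, adjusted p = 0.372) and Mrps7 (-0.23 ± 0.074, adjusted p = 0.315) followed. At the other end were Mrpl32 (0.21 ± 0.12, adjusted p = 0.598), Mrps18c (0.13 ± 0.078, adjusted p = 0.619), Mrpl52 (0.13 ± 0.083, adjusted p = 0.657) and Mrpl20 (0.11 ± 0.068, adjusted p = 0.653).

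Within CMPs the outermost members were Mrpl27 (-0.50 ± 0.28), Mrps27 (-0.43 ± 0.23) and Mrpl37 (-0.35 ± 0.13) on the negative side and Mrpl32 (0.19 ± 0.19), Mrps18c (0.16 ± 0.13) and Mrpl52 (0.15 ± 0.13) on the positive side, with adjusted p = 0.606 to 0.872. Within GMPs they were, beside Mrpl34, Mrps10 (-0.52 ± 0.16) and Mrpl49 (-0.48 ± 0.17), and Mrps14 (0.12 ± 0.31), Mrps18a (0.088 ± 0.17) and Mrps24 (0.083 ± 0.19), with adjusted p = 0.461 to 0.965. The positive differences in GMPs were smaller than their errors, and turned negative for Mrps14 without antibiotic GMP array 3 (-0.075) and for Mrps18a (-0.23) and Mrps24 (-0.017) without control GMP array 1. Within cMoPs they were, beside Mrpl34, Mrpl9 (-0.21 ± 0.16) and Mrpl21 (-0.18 ± 0.14), and Mrpl14 (0.61 ± 0.27), Mrps14 (0.52 ± 0.31) and Mrpl32 (0.48 ± 0.21), with adjusted p = 0.798 to 0.901. Single arrays moved several of these values: Mrps14 in cMoPs was 0.003 without control array 1 and 1.03 without control array 2, and Mrpl49 in GMPs was -0.79 without control array 1 and -0.17 without control array 2. Mrps27 in CMPs was -0.23 without antibiotic array 1 and -0.68 without antibiotic array 3. Mrpl27 and Mrps14 were among the dimmest members, with means over the 16 arrays of 4.64 and 4.75, near the median gene at 4.42. The 2 control cMoP arrays of Mrpl14 were 7.25 and 7.24, below antibiotic arrays at 7.96, 7.39 and 8.21.

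**Figure D3:**
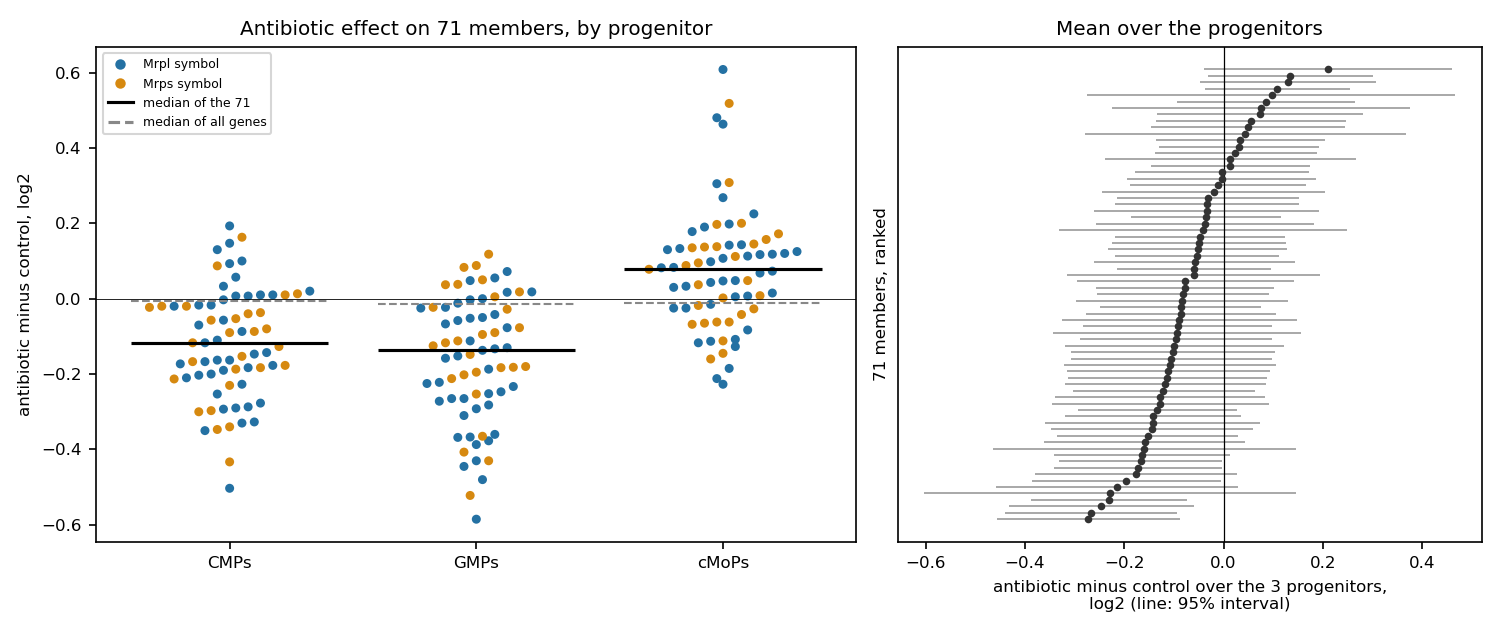
Left, log2 difference of antibiotic minus control (y axis) of each of the 71 genes within CMPs, GMPs and cMoPs (x axis), with the median of the 71 and of all genes as lines and symbols coloured by Mrpl or Mrps. Right, the 71 differences over the 3 progenitors with 95% intervals (x axis), ranked from Mrpl32 at 0.21 to Mrpl9 at -0.27.

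The sign of the differences was uneven and not the same in each progenitor. Antibiotic minus control was below 0 for 55 of the 71 genes in CMPs (median -0.12) and 57 in GMPs (median -0.14), and above 0 for 50 in cMoPs (median 0.078). Over the 3 progenitors 55 were below 0 (median -0.082). The medians over all genes were -0.007 in CMPs, -0.013 in GMPs, -0.012 in cMoPs and -0.013 over the 3. In CMPs the antibiotic arrays lay wholly below the control arrays for 14 members and wholly above for 1, against 6.36% and 5.21% of all genes. In GMPs it was 18 below and 0 above, against 12.6% and 10.4% of all genes, and in cMoPs 2 below and 12 above, against 11.4% and 9.59%. The interaction of water and progenitor, by limma's F test, was called for 0 members, against 0.00451% of all genes. An unadjusted p under 0.05 was found for 2 members and for 1284 of all 22180 genes. The smallest values of members were those of Mrpl34 (adjusted p = 0.818), Mrpl49 (adjusted p = 0.862) and Mrpl54 (adjusted p = 0.87).

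Both subunits shared these signs. In CMPs 33 of 45 large-subunit and 21 of 25 small-subunit genes were below 0 (medians -0.14 and -0.12), in GMPs 38 and 18 (medians -0.15 and -0.12), and in cMoPs 11 and 10 (medians 0.083 and 0.037). Cytosolic ribosomal protein genes had medians of -0.02 in CMPs, 0.008 in GMPs and 0.074 in cMoPs, and oxidative phosphorylation subunits -0.025, -0.046 and 0.052.

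The stalk genes followed the signs of the whole by the probe sets used. Mrpl10, Mrpl11 and Mrpl12 differed by -0.25, -0.20 and -0.16 in CMPs, by -0.39, -0.23 and -0.31 in GMPs and by 0.11, 0.19 and 0.12 in cMoPs, and none was called (adjusted p = 0.641 to 0.972). The dimmer probe set of Mrpl12 had the opposite signs, at 0.097 in CMPs, 0.02 in GMPs and -0.097 in cMoPs. That of Mrpl10 differed by 0.187, -0.053 and 0.212. The others of the best known members were not called over the 3 progenitors by the probe sets used. Mrps12 differed by -0.035, Mrps18b by -0.034, Mrps18a by 0.074, Mrpl45 by -0.089, Mrps22 by -0.096 and Mrps5 by -0.16. The dimmer probe set of Mrps18b differed by -0.282 over the 3 progenitors and by -0.585 in GMPs. That of Mrps5 differed by -0.223 and -0.627. Mrps11 of the small subunit and Mrpl46 of the large subunit lie head to head on opposite strands, with promoter windows that share 141 bases. In cMoPs against CMPs Mrps11 differed by -0.088 and Mrpl46 by 0.11, and neither was called.

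The lists of assembly factors, translation factors, synthetases, transcription genes, regulators and mitochondrial ribosomal proteins under other names also had 0 members called by limma with antibiotics, over the 3 progenitors or in any of them. Over the 3 progenitors the smallest adjusted p were those of the elongation factor Gfm1 (-0.31 ± 0.09, adjusted p = 0.276) and the complex II subunit Sdhd (-0.31 ± 0.092, adjusted p = 0.278), and Guf1 (0.20) and Rmnd1 (-0.42) followed Gfm1. Of the other lists the genes of smallest p were Mterf4 (0.20), Eral1 (0.18) and Mrm1 (0.26) among assembly factors, Aars2 (-0.20), Vars2 (-0.23) and Hars2 (0.14) among synthetases, and Polrmt (0.18), Hsd17b10 (0.17) and Polg (0.17) among transcription genes. Among mitochondrial ribosomal proteins under other names they were Dap3 (-0.19), Gadd45gip1 (-0.084) and Ptcd3 (-0.027), and among regulators Mycn (-0.14), Gabpa (-0.081) and Nrf1 (0.074). Among cytosolic ribosomal proteins they were Rpl34 (-0.25), Rps7 (-0.27) and Rpl3l (0.23), and among oxidative phosphorylation subunits, beside Sdhd, Cox6b2 (0.21) and Atp5mpl (0.18).

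Averaged over the 71 genes, the log2 signal per array was 8.04, 7.99 and 8.15 in antibiotic CMPs, against 8.16, 8.20 and 8.18 in control CMPs. It was 7.97, 7.91 and 8.11 in antibiotic GMPs against 8.11 and 8.20 in control GMPs, and 8.23, 8.11 and 8.26 in antibiotic cMoPs against 8.07 and 8.18 in control cMoPs. The antibiotic arrays lay below the control arrays in CMPs and GMPs, narrowly so for the highest antibiotic arrays, and overlapped them in cMoPs. The SD between arrays of a group was 0.075, and many members deviated together on single arrays: in the third antibiotic array 54, 56 and 50 of the 71 genes were above their group's mean in CMPs, GMPs and cMoPs, and in the second 26, 20 and 12. In CMPs and GMPs most monocyte markers had the sign of most members. In each, 7 of 8 were below 0, with 1 called in CMPs, and 4 of 8 were called lower over the 3 progenitors. Unlike the members, of which 50 of 71 were above 0 in cMoPs, 5 of 8 monocyte markers were below 0 there. Their mean was 6.87 to 7.32 in antibiotic and 7.55 to 7.64 in control CMPs, 7.89 to 8.15 in antibiotic and 8.25 to 8.43 in control GMPs, and 9.69 to 9.88 in antibiotic and 9.77 to 9.78 in control cMoPs. Of 6 megakaryocyte and erythroid markers, 5 were above 0 in GMPs, 1 of them called, and their mean was 6.27 to 6.35 in antibiotic and 5.51 to 6.00 in control GMPs. The mean of 5 proliferation markers was 9.65 to 9.69 in antibiotic and 9.78 to 9.84 in control CMPs, with none called. The part of these markers in the members' signs was not tested.

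**Figure D4:**
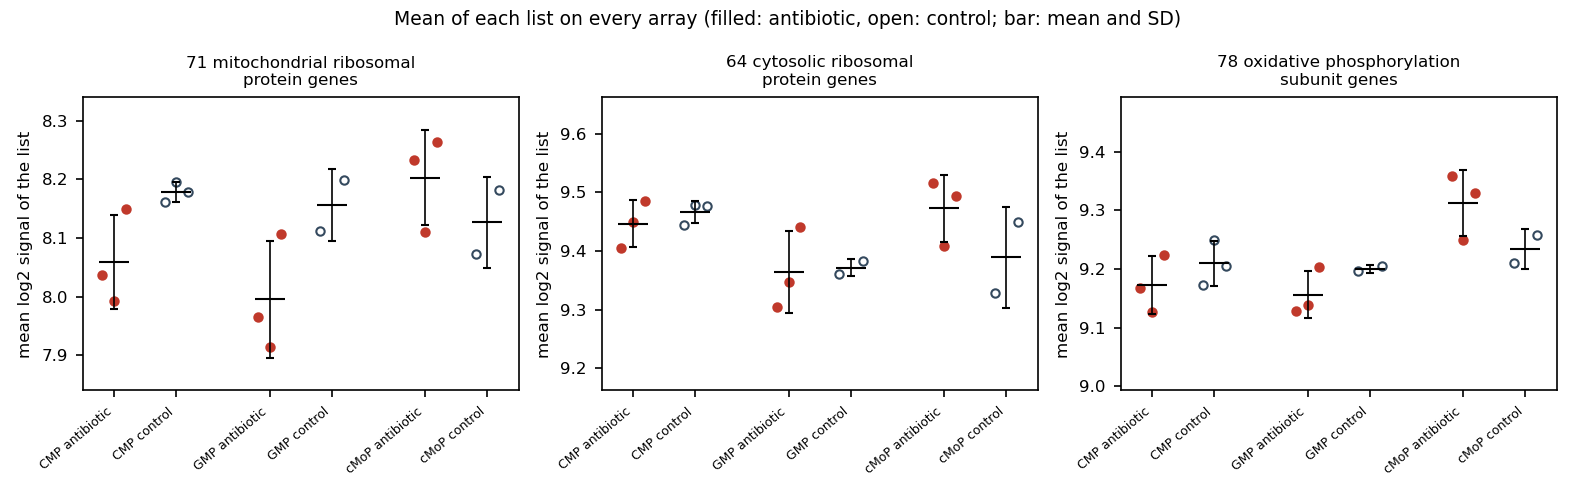
Mean log2 signal (y axis) of 71 mitochondrial ribosomal protein genes, 64 cytosolic ribosomal protein genes and 78 oxidative phosphorylation subunit genes on each array, by progenitor and water (x axis); filled points are antibiotic and open points control arrays, and bars are the mean and SD. In CMPs and GMPs the antibiotic arrays of the first panel lie at or below 8.15.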

How the data were processed

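RNA of 16 sorted progenitor samples was amplified and hybridised to 1-colour arrays. The authors deposited 1 log2 signal per probe set and array, to 2 decimals; the submitters' processing notes name Partek and Transcriptome Analysis Console, without versions. How background and normalization were handled is not stated there or in the labels. The columns had lower quartiles of 2.89 to 2.99, medians of 4.04 to 4.17 and upper quartiles of 6.24 to 6.41, so the values were used as deposited.

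Of 41345 probe sets 23521 carried 1 gene symbol in GEO's platform annotation, 1814 several and 16010 none; the first gave 22180 genes, 1 probe set each. Groups came from the titles and labels. A mean per group was fitted over all 16 arrays with limma 3.58.1 in R 4.3.3 (lmFit, contrasts, eBayes; 10 residual and 5.28 prior degrees of freedom), two-sided, with Benjamini-Hochberg adjustment over all genes. Progenitor contrasts average both waters with equal weight and were called at an adjusted p under 0.05, and antibiotic contrasts and the F test of the interaction under 0.2, the rate in the study's design. The scripts were tested on simulated data.

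The members, gene lists and tests were chosen with earlier results of these data known. Members are named where called between progenitors (up to 12 each way), at the extremes of each antibiotic contrast (4 each way over the 3 progenitors, 3 within each), at the 3 smallest interaction p, and always for the stalk, Mrps5, Mrps12, Mrps18a to Mrps18c, Mrps22, Mrpl41, Mrpl44 and Mrpl45, of which Mrpl41 and Mrpl44 have no probe set of their own. Of a related list, called genes are named up to 6, and where none is called the 3 of smallest p, given here for the contrast over the 3 progenitors. Mrpl50, Mrps11 and Mrpl46 were named after their values were seen, as were Nrf1, Gabpa and Yy1 for progenitors. Alternatives tried were leaving out each array, the replicate number as a block, only genes brighter than the median gene, trended and robust variances, every probe set or their mean per gene, quantile normalization, median centring, an unmoderated model and only the arrays compared, and, chosen after seeing the data, the replicate block within each water.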

Additional observations from a re-analysis of the deposited data

Results flagged for a closer look

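Antibiotic arrays and control arrays did not overlap and differed in opposite directions in a pair of progenitors for 2 of the 71 genes (2.82%), against 756 of all genes (3.41%). Mrps23, a small-subunit gene particular to mitochondria, had 7.33, 7.50 and 7.71 in antibiotic GMPs against 7.81 and 8.03 in control GMPs (-0.41 ± 0.19), and 7.93, 7.76 and 7.91 in antibiotic cMoPs against 7.60 and 7.74 in control cMoPs (0.20 ± 0.19). Mrpl57, a large-subunit gene, had 7.61, 7.52 and 7.77 in antibiotic GMPs against 7.93 and 8.07 in control GMPs (-0.37 ± 0.14), and 8.05, 7.99 and 7.96 in antibiotic cMoPs against 7.80 and 7.95 in control cMoPs (0.12 ± 0.14). The test of the difference between progenitors itself, limma's interaction, did not call either gene: the adjusted p was 0.893 for Mrps23 and 0.87 for Mrpl57. No group had the 4 arrays needed to look for single outlying arrays.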

How the results depend on the processing

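The count of members called was within 1.5 times that reported under the alternatives run, with these exceptions. Antibiotic calls over the 3 progenitors were 3 where genes dimmer than the median gene were dropped, which tests fewer genes (3.18% of them called). With trended and robust variances there was 1 (1.58% of all genes called), and 1 in GMPs (0.122%). GMPs against CMPs had 2 calls with every probe set tested and 3 both with only the arrays compared and with the replicate block within each water. The shares of all genes called were then 13%, 14.7% and 14%. cMoPs against GMPs had 2 calls with the replicate block (5.23% of all genes called), the block within each water (4.91%) or trended and robust variances (6.19%). It also had 2 with the brighter genes (12.7% of those genes called). It had 0 with every probe set (3.97%), quantile normalization (5.39%) or only the arrays compared (4.95%). The cause of the other changes was not tested. Without 1 array the counts ran from 1 to 5 for GMPs against CMPs, the lowest without control GMP array 1 and 3 without antibiotic GMP arrays 2 or 3, antibiotic CMP array 3, control CMP array 3 or control GMP array 2. They ran from 0 to 2 for cMoPs against GMPs (2 without antibiotic CMP array 3 or antibiotic GMP array 3, 1 without antibiotic CMP array 2, control GMP array 2 or antibiotic cMoP array 2, and 0 without any other), from 5 to 8 for cMoPs against CMPs, and stayed at 0 for each antibiotic contrast. Where at least 2 arrays were left in each group, these fits called 14.3% to 15.7% of all genes in GMPs against CMPs. They called 4.46% to 5.45% in cMoPs against GMPs and 17% to 18.8% in cMoPs against CMPs. The medians of the 71 genes without 1 array were -0.097 to -0.049 for antibiotics over the 3 progenitors, -0.163 to -0.088 in CMPs, -0.21 to -0.085 in GMPs and 0.027 to 0.115 in cMoPs. They were 0.062 to 0.123 for cMoPs against GMPs, 0.054 to 0.125 for cMoPs against CMPs and -0.045 to 0.007, on both sides of 0, for GMPs against CMPs. Uncalled antibiotic differences that changed sign were those of Mrps14 in GMPs (-0.007 with the replicate block), and without 1 array Mrps14 (-0.075 to 0.29), Mrps18a (-0.227 to 0.403) and Mrps24 (-0.017 to 0.183) in GMPs and, without antibiotic CMP array 3, Mrpl32 in CMPs (-0.01 to 0.425). For same-numbered arrays of a water, deviations from group means correlated at -0.049 to 0.104 over all genes (over 0.1 in 1 of 15 pairs) and at -0.296 to 0.168 over the 71 genes (over 0.1 in 6 of 15). The members' mean, however, had the same order of numbers in each progenitor with antibiotics (3, 1, 2 from the highest), and whether the numbers mark shared mice is not given in the labels. They were not taken as pairs. No setting allowed for mice shared by the progenitors of a water in the antibiotic contrasts, since the block within each water was fitted for progenitors only. The replicate block joins the same number across both waters. With it there were 5, 2 and 7 calls in GMPs against CMPs, cMoPs against GMPs and cMoPs against CMPs, and 0 with antibiotics. Of all genes it called 15.5%, 5.23% and 18.6% in these progenitor comparisons. Of values of named genes, 353 kept direction and side of the threshold under other settings and 620 without 1 array, 69 (21 and 48) lost a call and 5 gained one. The 2 or 3 arrays of a group limit what could be called, and the files give no signal over background.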

Other observations

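Mmp14, the neighbour of Mrpl52 on the same strand in RefSeq's GRCm38.p6 annotation, encodes a membrane-bound matrix metalloproteinase and was looked at after the difference of Mrpl52 was seen. Its mean log2 signal was 7.16 in antibiotic and 6.98 in control CMPs, 4.18 in antibiotic and 4.25 in control GMPs, and 4.23 in antibiotic and 3.99 in control cMoPs. It fell in the same comparisons as Mrpl52, by 2.86 in GMPs against CMPs (limma adjusted p = 7.85e-10) and by 2.96 in cMoPs against CMPs (adjusted p = 4.1e-10). The other measured neighbours were not called in cMoPs against CMPs: Slc7a7 differed by 0.54 (adjusted p = 0.0524), Lrp10 by 0.31 (adjusted p = 0.0582) and Rem2 by 0.061. Slc7a7 was called in cMoPs against GMPs (0.78, adjusted p = 0.0254), where Mrpl52 and Mmp14 were not. Whether signal of the 2 genes is independent on these arrays was not tested.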
